A study of Mus musculus with 4 samples.

Results

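The genes described here mark the cells that line blood and lymphatic vessels and the state of those cells. They were chosen by symbol from a fixed list of 48 endothelial genes, of which 47 are among the 12661 genes of the deposited table. Expression of *Sele* (E-selectin) was not analysed here. The list joins 16 surface, junction and secreted identity genes, 8 growth factor and peptide receptors, 10 transcription factors, 5 genes of the Notch pathway, 5 activation genes (*Selp*, *Sele*, *Vcam1*, *Icam1* and *Angpt2*), 3 lymphatic genes (*Flt4*, *Prox1* and *Pdpn*) and the ligand gene *Angpt1*.

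The libraries were made from wild type C57BL/6 mice, ovariectomized females that are 11-week-old by the labels. Each of the 4 libraries holds RNA of the tissue lying outside the femoral artery, labelled perivascular adipose tissue (PVAT), at 48 h after surgery. In the injury group (2 libraries) a spring wire of 0.38 mm was inserted into the femoral artery, and the control group (2 libraries) had a sham operation. Ovariectomy is shared by both groups, and the labels do not say whether a library holds the tissue of 1 animal or of a pool. If the libraries of a group are not from separate animals, the p-values measure technical spread only.

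Endothelial cells are held together by VE-cadherin, claudin-5 and other junction proteins, and their identity depends on transcription factors of the ETS and SOX families. Their growth and quiescence are set by vascular endothelial growth factors (VEGF) acting on VEGF receptors, by angiopoietins acting on the receptor TIE2, and by Notch signals between neighbouring cells. When activated by cytokines, they expose selectins and adhesion molecules that capture leukocytes from the blood. Wire insertion is a standard way to strip this lining from an artery, while the fat around the artery has capillaries and lymphatics of its own.

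The values are the signed numbers that the authors deposited, 1 per gene and library, given here in deposited units. Of all values 50.5% are below 0, and each library has its median near 0. The scale's base, what a gene's value is relative to and the reads behind it are not given in the sources used here. Levels of different genes therefore cannot be compared, no fold change is printed, and a value of 0 does not mean absence. The columns have SDs of 0.32 to 0.44, with injury replicate 2 the narrowest and sham replicate 1 the widest. Among markers of the tissue, 6 of 6 adipocyte genes are in the table. Since the RNA is from whole tissue, fewer endothelial cells and less of an RNA per cell cannot be told apart.

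Of the 47 endothelial genes 13 fell after injury and none was called higher, with *Vwf*, *Calcrl*, *Prox1* and *Plvap* the lowest in difference. Injury and sham libraries were compared with limma, a linear model that shares variance across genes, with Benjamini-Hochberg adjustment over all 12661 genes and a threshold of 0.05. The 13 genes called lower are 27.7% of the list, where 3.67% of all genes were called lower and 3.76% higher. The count of endothelial genes called higher was 0, and 1 of them, *Pdpn*, reached an unadjusted p under 0.05 in that direction, against 30 in the lower direction. Of all genes 14.8% reached that unadjusted p in the lower direction and 14.8% in the higher. In 34 of the 47 both injury libraries lay below both sham libraries, an arrangement held by 30.3% of all genes. In 1 gene both lay above, an arrangement held by 31.6% of all genes. The median difference, injury minus sham, was -0.62 for the 47 genes and 0.0085 for all genes. Calls depended on which libraries were kept, and a fit with 1 left out has 1 residual degree of freedom. Without sham replicate 1 or without sham replicate 2, no endothelial gene was called by limma, where 0 and 1 of all 12661 genes were. Without injury replicate 1 only *Clec14a*, *Vwf*, *Nos3*, *Ptprb* and *Calcrl* were called lower. Without injury replicate 2 *Erg*, *Flt4* and *Prox1* were not called, other genes were gained, and *Pdpn* was called higher. Calls over the whole table moved as well, to fewer without injury replicate 1 and to more without injury replicate 2. The median difference ranged from -0.69 to -0.57 over these 4 comparisons. Permuting 2 libraries of each group exactly gives no p below 0.333 for any gene alone, so each call rests on the variance that limma shares.

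**Figure D1:**
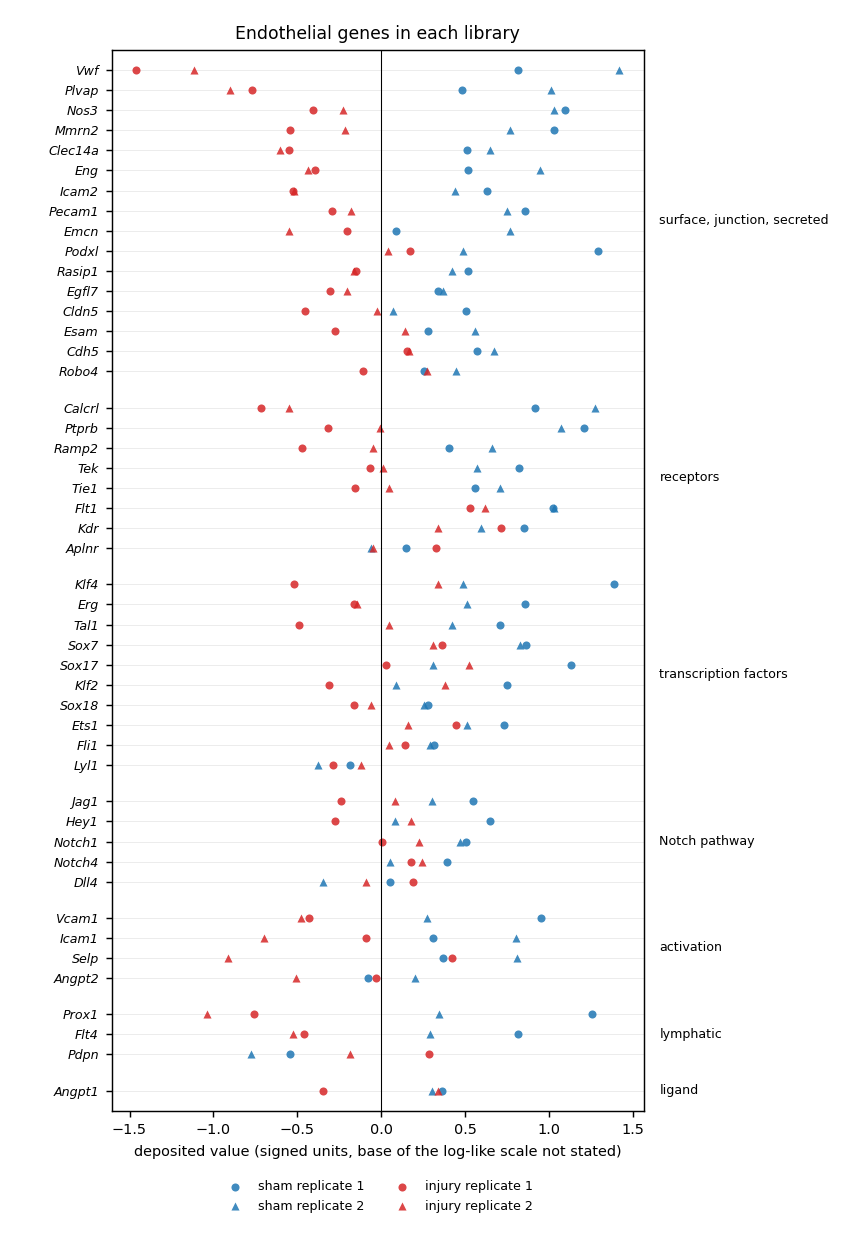
Deposited value (x axis, signed units) of each of the 47 endothelial genes in each of the 4 libraries, grouped by role and ordered by difference within a role. Blue symbols are sham and red symbols are injury libraries, circles replicate 1 and triangles replicate 2. In 34 genes, among them *Vwf*, *Calcrl* and *Nos3*, both red symbols lie to the left of both blue ones, and in *Pdpn* they lie to the right.

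The surface, junction and secreted genes had 8 of 16 called lower, a median difference of -0.92, and both injury libraries below both sham libraries in 15 genes. *Vwf* encodes von Willebrand factor, the clotting protein that endothelial cells store and that platelets also carry, and lies on chromosome 6 from 125496792 to 125636697 of mm9. Its values were 0.81 and 1.42 after sham operation and -1.46 and -1.12 after injury. The groups stood far apart, with a difference of -2.40 (standard error 0.25, limma adjusted p = 0.0285), which was the lowest of the 47. *Plvap*, the protein of the diaphragms that span endothelial pores, lies on chromosome 8 from 74021653 to 74035668. It was at 0.48 and 1.01 in the sham libraries and at -0.77 and -0.90 in the injury libraries. Its difference was -1.58 (standard error 0.21, limma adjusted p = 0.0291). *Nos3*, the endothelial nitric oxide synthase gene on chromosome 5 from 23870628 to 23890292, was at 1.10 and 1.03 in sham tissue against -0.40 and -0.23 in injured tissue. Replicates lay close together in both groups, and the difference was -1.38 (standard error 0.14, limma adjusted p = 0.0285).

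*Mmrn2*, a matrix protein laid down around endothelial cells, and *Clec14a*, a surface lectin that binds it, were both called lower. The values of *Mmrn2* (chromosome 14 from 35188690 to 35217473) were 1.03 and 0.76 after sham operation and -0.55 and -0.22 after injury. Those of *Clec14a* (chromosome 12 from 59365707 to 59370245) were 0.51 and 0.65 against -0.55 and -0.61. Differences were -1.28 (standard error 0.18, limma adjusted p = 0.0291) for *Mmrn2* and -1.16 (standard error 0.14, limma adjusted p = 0.0285) for *Clec14a*. *Eng*, or endoglin, a co-receptor for ligands of the TGF-beta family, on chromosome 2 from 32502115 to 32538189, was at 0.52 and 0.94 and then at -0.39 and -0.44, a difference of -1.14 (standard error 0.18, limma adjusted p = 0.0327). The adhesion genes *Icam2* and *Pecam1* (CD31), which sit at contacts between endothelial cells, also passed the threshold. For *Icam2* the sham libraries gave 0.63 and 0.44 and the injury libraries -0.53 and -0.52, and for *Pecam1* they gave 0.86 and 0.75 against -0.30 and -0.18. Their differences were -1.06 (standard error 0.14, limma adjusted p = 0.0291) and -1.04 (standard error 0.14, limma adjusted p = 0.0291). In each of these 8 genes the lower sham value exceeded the higher injury value by more than the gap between replicates in either group.

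The other 8 genes of this group missed the threshold. Differences for *Rasip1*, a regulator of vessel lumen formation, and *Egfl7*, a secreted vascular protein, were -0.62 (limma adjusted p = 0.0533) and -0.61 (limma adjusted p = 0.0550). *Cdh5*, which encodes VE-cadherin, was at 0.57 and 0.67 in the sham libraries and at 0.15 and 0.16 in the injury libraries. The groups were separate, but the difference of -0.46 (standard error 0.13, limma adjusted p = 0.0932) was not called. *Emcn* (endomucin) and *Podxl* (podocalyxin), sialomucins of the vessel lumen, had larger differences of -0.80 and -0.78. Their sham libraries were far apart, at 0.088 and 0.77 for *Emcn* and at 1.29 and 0.49 for *Podxl*, and the limma adjusted p-values were 0.120 and 0.138. The junction genes *Cldn5* (claudin-5) and *Esam* had differences of -0.53 (limma adjusted p = 0.193) and -0.48 (limma adjusted p = 0.181). *Robo4*, a guidance receptor of endothelial cells, was the only gene of the group whose libraries overlapped, at 0.25 and 0.44 against -0.11 and 0.27, with a difference of -0.27 and a 95% interval of -0.73 to 0.19. *Eng*, *Rasip1* and *Egfl7* overlap another protein-coding gene on the same strand in the mm9 annotation, as does *Ramp2* below, and how reads of such overlaps were counted is not given in the sources used here.

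Of the receptors 2 of 8 were called lower, and in 6 of 8 both injury libraries lay below both sham libraries. *Calcrl* encodes the receptor that, with RAMP2, binds the vasodilator peptide adrenomedullin, and lies on chromosome 2 from 84170783 to 84265568. It was at 0.91 and 1.27 after sham operation and at -0.72 and -0.55 after injury, with a difference of -1.73 (standard error 0.18, limma adjusted p = 0.0285). Its partner *Ramp2* had values of 0.40 and 0.66 against -0.47 and -0.051 and a difference of -0.80 (standard error 0.20, limma adjusted p = 0.0702), which missed the threshold. *Ptprb*, the phosphatase VE-PTP that restrains TIE2, on chromosome 10 from 115712579 to 115826594, was at 1.20 and 1.07 and then at -0.32 and -0.0072. Its difference was -1.30 (standard error 0.17, limma adjusted p = 0.0285). The angiopoietin receptor genes *Tek* (TIE2) and *Tie1* were just above the threshold, with differences of -0.73 (limma adjusted p = 0.0513) and -0.69 (limma adjusted p = 0.0549), and in both the groups were separate. Among the VEGF receptors, *Flt1* (VEGFR1) was at 1.02 and 1.03 in the sham libraries and at 0.53 and 0.62 in the injury libraries, a difference of -0.45 (limma adjusted p = 0.0957). *Kdr* (VEGFR2), the main signalling receptor for VEGF-A, had overlapping values of 0.85 and 0.59 after sham operation and 0.71 and 0.34 after injury. Its difference of -0.20 had a 95% interval of -0.67 to 0.28. *Aplnr*, the apelin receptor gene, overlapped as well, at 0.15 and -0.062 against 0.33 and -0.048, a difference of 0.10 with an interval of -0.36 to 0.56, and its sign changed when sham replicate 2 or injury replicate 1 was left out. Both intervals leave room for changes in either direction.

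**Figure D2:**
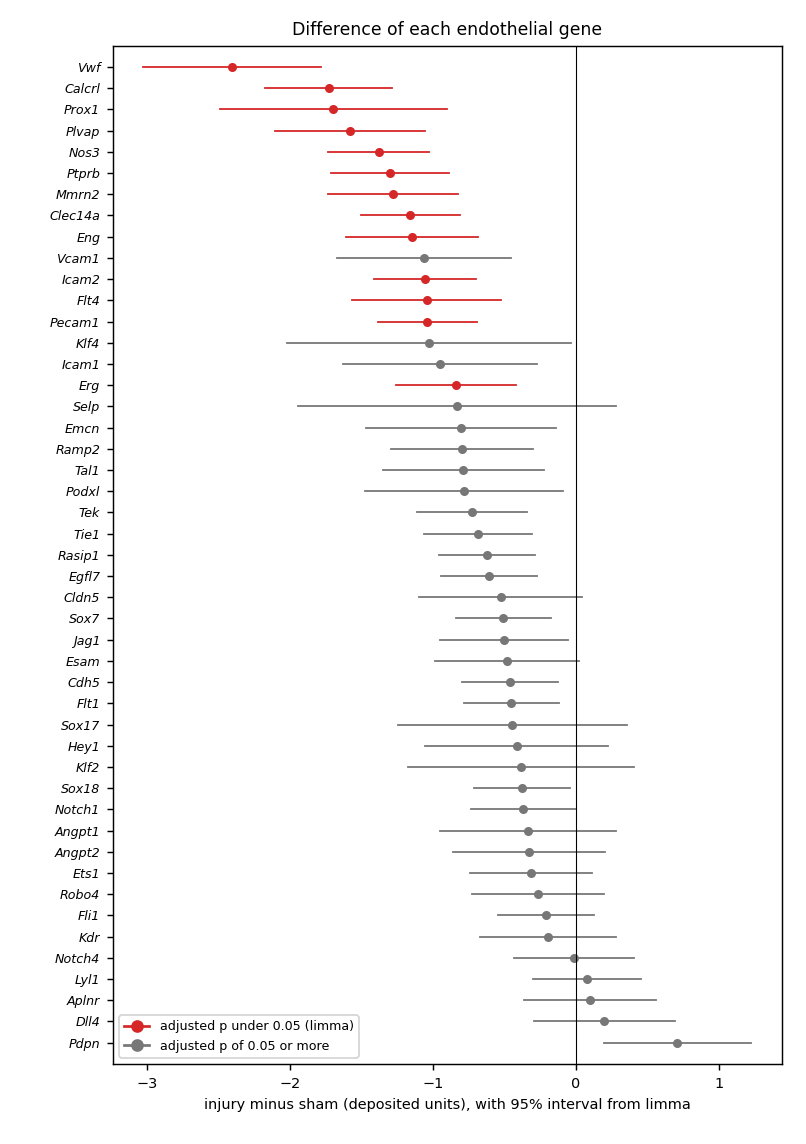
Difference between the injury and sham means (x axis, deposited units) of the 47 endothelial genes, ordered from lowest to highest, with 95% intervals from limma. Red marks an adjusted p-value under 0.05, reached by 13 genes from *Vwf* at -2.40 to *Erg* at -0.84, and grey marks the other 34, from *Vcam1* at -1.06 to *Pdpn* at 0.71.

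Promoter sequences were looked at for the listed genes, since ETS factors such as ERG act on many endothelial promoters and NF-kB acts on those of adhesion genes. RefSeq windows of GRCm38.p6, from 250 bases before to 50 after a gene's start, were matched by symbol for 27 of the 48 listed genes (33 windows). Of these 27 genes 6 were called lower, and *Sele* is among the 27 without an expression value here. The stretches below are the 250 bases before the start, 5′ to 3′. They show 3 genes called lower (*Clec14a*, *Calcrl* and *Eng*) and *Kdr*, whose groups overlapped. Capitals there mark GGAAG on either strand, called the ETS core here. Other forms of ETS site were not searched for. In the activation genes *Icam1* and *Selp*, capitals mark a shortened NF-kB motif, GGNNNTTCC, on either strand.
Clec14a (chr12:58269259-58269508, minus strand): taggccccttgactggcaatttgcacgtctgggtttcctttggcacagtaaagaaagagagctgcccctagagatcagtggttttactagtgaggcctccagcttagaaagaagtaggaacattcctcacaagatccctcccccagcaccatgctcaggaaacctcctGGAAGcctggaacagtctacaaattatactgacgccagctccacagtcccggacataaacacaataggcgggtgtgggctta
Calcrl (chr2:84425267-84425516, minus strand): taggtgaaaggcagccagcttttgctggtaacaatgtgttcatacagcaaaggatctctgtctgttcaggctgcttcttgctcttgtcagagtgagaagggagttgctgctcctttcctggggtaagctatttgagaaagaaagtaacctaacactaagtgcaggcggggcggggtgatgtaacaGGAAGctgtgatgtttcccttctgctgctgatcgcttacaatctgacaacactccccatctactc
Eng (chr2:32646345-32646594, plus strand): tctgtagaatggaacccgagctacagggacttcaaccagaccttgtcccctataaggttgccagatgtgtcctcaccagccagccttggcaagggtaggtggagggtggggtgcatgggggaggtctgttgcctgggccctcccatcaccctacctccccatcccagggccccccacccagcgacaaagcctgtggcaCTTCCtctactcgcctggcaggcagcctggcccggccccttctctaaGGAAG
Kdr (chr5:75978456-75978705, minus strand): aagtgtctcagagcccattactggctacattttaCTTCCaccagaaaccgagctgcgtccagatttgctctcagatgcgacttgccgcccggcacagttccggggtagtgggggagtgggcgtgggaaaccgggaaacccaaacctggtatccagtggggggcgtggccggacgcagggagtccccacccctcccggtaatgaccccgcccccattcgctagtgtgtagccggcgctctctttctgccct
Icam1 (chr9:21015690-21015939, plus strand): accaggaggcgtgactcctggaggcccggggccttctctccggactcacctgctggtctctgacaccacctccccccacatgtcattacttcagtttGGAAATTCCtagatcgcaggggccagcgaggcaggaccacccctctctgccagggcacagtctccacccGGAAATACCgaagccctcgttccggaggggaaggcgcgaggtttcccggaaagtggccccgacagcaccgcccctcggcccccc
Selp (chr1:164115014-164115263, plus strand): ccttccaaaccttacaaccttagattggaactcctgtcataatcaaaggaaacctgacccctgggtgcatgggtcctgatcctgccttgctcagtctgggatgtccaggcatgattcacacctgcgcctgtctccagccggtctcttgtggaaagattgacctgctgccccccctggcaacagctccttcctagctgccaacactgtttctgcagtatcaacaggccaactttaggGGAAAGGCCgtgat

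Counted from the start, the first base of the ETS core was at -82 in *Clec14a*, at -65 in *Calcrl*, at -52 and -5 in *Eng* and at -216 in *Kdr*. Of the 9 windows of genes called lower 8 held this core, as did 25 of the 33 endothelial windows (75.8%) and 71.4% of all 32851 windows, so the core is common in promoters of any kind. The shortened NF-kB motif was at -153 and -84 in *Icam1* and at -14 in *Selp*. It was in 8 of the 33 endothelial windows (24.2%) and in 18.5% of all windows. In 3 of these 8 windows, that of *Eng* and the 2 of *Egfl7* that hold it, the match overlapped an ETS core. A KLF core, CACCC on either strand, was in 25 of the 33 windows (75.8%) and in 57.5% of all. TATAAA was in 15.2% of the endothelial windows and in 13.6% of all. These matches describe the letters and are not evidence of binding.

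Of the transcription factors 1 of 10 was called lower, and their median difference was -0.41. *Erg*, an ETS factor that maintains endothelial identity, on chromosome 16 from 95580776 to 95808200, was at 0.86 and 0.51 in the sham libraries and at -0.16 and -0.14 in the injury libraries. Its difference was -0.84 (standard error 0.17, limma adjusted p = 0.0471), close to the threshold, and the adjusted p ranged from 0.0356 to 0.247 over the alternatives. The other ETS genes, *Ets1* and its neighbour on chromosome 9 *Fli1*, both also active in blood cells, had differences of -0.32 (limma adjusted p = 0.281) and -0.21 (limma adjusted p = 0.355). The SOX genes *Sox7*, *Sox18* and *Sox17*, which act in arterial and lymphatic specification, differed by -0.51 (limma adjusted p = 0.0752), -0.38 (limma adjusted p = 0.139) and -0.44 (limma adjusted p = 0.406). *Sox17* was at 1.13 and 0.31 after sham operation and at 0.027 and 0.52 after injury, so that sham replicate 1 alone stood high. The flow-responsive genes *Klf2* and *Klf4*, of which *Klf4* is also used by smooth muscle cells and monocytes, varied widely between replicates. *Klf4* values were 1.39 and 0.49 against -0.52 and 0.33, and *Klf2* values were 0.75 and 0.089 against -0.31 and 0.38. Their differences of -1.03 and -0.38 had limma adjusted p-values of 0.160 and 0.467. *Tal1* and *Lyl1*, related factors of blood and endothelial development, differed by -0.79 (limma adjusted p = 0.0909) and 0.077 (limma adjusted p = 0.773). *Lyl1* changed sign when sham replicate 2 or injury replicate 2 was left out.

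The Notch genes of the list, with a median difference of -0.37, had none called lower and none called higher, and 2 of 5, *Notch1* and *Jag1*, had an unadjusted p under 0.05. The receptor gene *Notch1* was at 0.50 and 0.47 in the sham libraries and at 0.0055 and 0.22 in the injury libraries, a difference of -0.37 (limma adjusted p = 0.168). *Notch4*, the receptor found mostly in endothelium, overlapped at 0.39 and 0.052 against 0.18 and 0.24. Its difference was -0.014 with an interval of -0.43 to 0.40, and its sign changed when the columns were quantile normalized or scaled to a common spread, and without sham replicate 1 or injury replicate 1. The tip cell ligand *Dll4*, a marker of sprouting and arterial endothelium, had values of 0.05 and -0.35 against 0.19 and -0.089, a difference of 0.20 with an interval of -0.29 to 0.69. The ligand *Jag1*, which smooth muscle cells also make, and the arterial target gene *Hey1* differed by -0.50 (limma adjusted p = 0.138) and -0.41 (limma adjusted p = 0.338).

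No activation gene was called higher in the injured tissue at 48 h. All 4 in the table had lower means after injury, with a median difference of -0.89, and 0 of 4 passed the limma threshold in either direction, 2 with an unadjusted p under 0.05. Of all 12661 genes 6211 had lower means. *Vcam1*, the ligand of the leukocyte integrin VLA-4, which fibroblasts also make, was at 0.95 and 0.27 after sham operation and at -0.43 and -0.48 after injury. The difference was -1.06 (standard error 0.24, limma adjusted p = 0.0591), and it was called lower after quantile normalization and after scaling of the columns. *Icam1*, the ligand of the leukocyte integrin LFA-1, was at 0.31 and 0.80 in sham tissue and at -0.092 and -0.70 in injured tissue, a difference of -0.95 (standard error 0.27, limma adjusted p = 0.0897). *Selp* encodes P-selectin, which is stored together with von Willebrand factor and is also carried by platelets. Its values were 0.37 and 0.81 in the sham libraries and 0.42 and -0.91 in the injury libraries. Injury replicate 1 thus lay between the sham libraries while injury replicate 2 lay far below both, and the difference of -0.83 had an interval of -1.94 to 0.28. *Angpt2*, the stored antagonist of TIE2 that loosens vessels, overlapped at -0.079 and 0.20 against -0.031 and -0.51, a difference of -0.33 (limma adjusted p = 0.355). Between the injury libraries, replicate 1 exceeded replicate 2 for all 4 genes, and for 6194 of all 12661 genes. Markers of macrophages and monocytes (7 of 7 in the table) were likewise all higher in injury replicate 1, with list medians of 0.64 and -0.19 in the injury libraries and of -1.20 and -0.90 in the sham libraries. Their part in the replicate gap was not tested.

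Of the lymphatic genes 2 of 3 were called lower. *Prox1*, the master regulator of lymphatic identity, on chromosome 1 from 191945660 to 191994559, was at 1.25 and 0.34 in the sham libraries and at -0.76 and -1.04 in the injury libraries. The sham libraries differed by 0.91, yet the injury libraries were lower than both, and the difference was -1.70 (standard error 0.32, limma adjusted p = 0.0422). *Flt4* (VEGFR3), the receptor for VEGF-C, on chromosome 11 from 49422765 to 49466241, was at 0.81 and 0.29 and then at -0.46 and -0.53, with a difference of -1.04 (standard error 0.21, limma adjusted p = 0.0465). Both missed the threshold when any 1 of the 4 libraries was left out. *Pdpn* (podoplanin), which also marks fibroblasts and activated macrophages, was at -0.55 and -0.78 after sham operation and at 0.29 and -0.19 after injury. It was the only gene of the 47 with both injury libraries above both sham libraries, with a difference of 0.71 (standard error 0.21, limma adjusted p = 0.0934). *Angpt1*, the TIE2 agonist made by mural and stromal cells, was at 0.36 and 0.30 in the sham libraries and at -0.35 and 0.34 in the injury libraries, which overlapped, a difference of -0.34 (limma adjusted p = 0.413), which was 0.0054 without injury replicate 1.

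Other genes of the same pathways were examined in lists that together hold 78 genes, 73 of them in the table. Of these 14 (19.2%) were called lower and 2 higher, with a median difference of -0.53. Over all genes 3.67% were called lower and 3.76% higher. Other endothelial genes had 5 of 32 called lower. These were *She*, *Ecscr*, *Tm4sf1*, *Cd34*, the sialomucin of endothelial and progenitor cells, and *Tspan7*, with differences of -1.24, -1.08, -1.04, -0.98 and -0.79. Arterial genes had 2 of 6 called lower, the connexin gene *Gja4* at -1.52 (limma adjusted p = 0.0472) and *Fbln5*, an elastic fibre gene, at -1.29 (limma adjusted p = 0.0329), while the arterial ligand *Efnb2* differed by -0.48 (limma adjusted p = 0.218). With the replicate number as a block *Gja4* and *Tspan7* were not called (limma adjusted p = 0.0545 and 0.0576). The venous receptor of *Efnb2*, *Ephb4*, was the 1 of 3 venous genes called lower, at -1.002 (limma adjusted p = 0.0339). Of 4 further lymphatic genes in the table, 2 were called lower, *Mmrn1* at -1.83 (limma adjusted p = 0.0308) and *Foxc2* at -1.37 (limma adjusted p = 0.0291). The hyaluronan receptor *Lyve1*, also found on resident macrophages, differed by -1.50 (limma adjusted p = 0.0610).

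Among 11 further Notch genes, *Dll1* and the feedback gene *Nrarp* were called lower, at -1.67 (limma adjusted p = 0.0285) and -0.85 (limma adjusted p = 0.0497), the latter not with the replicate number as a block (limma adjusted p = 0.0632). The list's median was -0.79, and *Rbpj* and *Notch2*, with both injury libraries above both sham libraries, were not called at 0.94 (limma adjusted p = 0.0516) and 0.59 (limma adjusted p = 0.117). No VEGF ligand or neuropilin gene (7 in the table) was called in either direction by limma, and 1, *Vegfc*, had an unadjusted p under 0.05. *Vegfa* was at 0.46 and 0.28 after sham operation and at 0.51 and 0.76 after injury, a difference of 0.26 (limma adjusted p = 0.334). The lymphatic growth factor *Vegfc* had values of 1.08 and 0.13 against -0.43 and -0.96 and a difference of -1.30 (limma adjusted p = 0.0819), while *Pgf* differed by 0.61 (limma adjusted p = 0.242). *Vegfc* was called lower with the replicate number as a block (limma adjusted p = 0.0365), and *Pgf* was called higher without injury replicate 2 (limma adjusted p = 0.0200). The apelin ligand gene *Apln* was at -0.76 and 0.072 after sham operation and at 1.12 and 0.16 after injury, a difference of 0.98 (limma adjusted p = 0.181) with wide gaps between replicates. *Ramp1*, the partner of CALCRL in the receptor for the peptide CGRP, was called lower at -1.05 (limma adjusted p = 0.0317), 1 of 4 genes of the apelin and adrenomedullin list. Of the 6 genes of the leukocyte adhesion list 2 were called higher and 1 lower. *Selplg*, the ligand of P-selectin, differed by 1.63 (limma adjusted p = 0.0383), and *Itgb2*, a subunit of LFA-1, by 1.48 (limma adjusted p = 0.0291), while *Itgal*, the other subunit of LFA-1, and *Itga4*, a subunit of VLA-4, were not called at 0.91 (limma adjusted p = 0.165) and 1.23 (limma adjusted p = 0.0506). With the replicate number as a block *Itga4* was called higher (limma adjusted p = 0.0379). In the same list *Ackr3*, a scavenging chemokine receptor, was called lower at -1.28 (limma adjusted p = 0.0328).

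Markers of other cells of the vessel wall and blood moved too. The shares to set beside the counts below are those of all genes, 3.67% called lower and 3.76% higher. Smooth muscle genes had 4 of 6 called lower, *Myh11*, *Cnn1*, *Acta2* and *Tagln*, with differences of -2.52, -2.36, -2.18 and -2.12 and limma adjusted p-values of 0.0499, 0.0440, 0.0397 and 0.0452. These calls were near the threshold and were lost with the replicate number as a block, as were those of *Cspg4*, *Lum*, *Dcn*, *Col1a1* and *Plin1* given next. The smooth muscle list medians were 1.73 and 1.04 in the sham libraries and -1.47 and -0.19 in the injury libraries. Of 6 pericyte genes 1, *Cspg4*, was called lower, at -0.90 (limma adjusted p = 0.0440), and the list median difference was -0.24. Fibroblast genes had 3 of 6 called lower, *Lum*, *Dcn* and *Col1a1*, at -1.04, -0.996 and -0.78, and 1 of 6 adipocyte genes, *Plin1*, was called lower, at -0.74 (limma adjusted p = 0.0444). The adipocyte list had 3 lower and 3 higher means and a median of -0.13. Markers of skeletal muscle (4 in the table) had none called by limma, with 2 at an unadjusted p under 0.05 and a median of -0.75. Platelet and megakaryocyte genes had 0 of 7 called by limma in either direction, and a median of -0.18, and the 2 at an unadjusted p under 0.05, *Pf4* and *Ppbp*, had higher means, at 1.25 (limma adjusted p = 0.0544) and 0.91 (limma adjusted p = 0.0561). With the replicate number as a block *Pf4* was called higher (limma adjusted p = 0.0358). The red cell genes *Hba-a1*, *Hbb-b1* and *Alas2* had differences of 1.34, 1.04 and 1.35, and none was called by limma, with 3 at an unadjusted p under 0.05. Macrophage and monocyte markers had 3 of 7 called higher, *Ccr2*, *Itgam* and *Csf1r*, at 2.30, 1.61 and 1.33. Neutrophil markers had 1 of 5 called higher, *Retnlg* at 1.83, and a median of 1.86, and *Lck*, the 1 lymphocyte marker in the table, differed by 0.59 (limma adjusted p = 0.256). How far the share of these cells in the tissue sets the endothelial values was not tested.

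**Figure D3:**
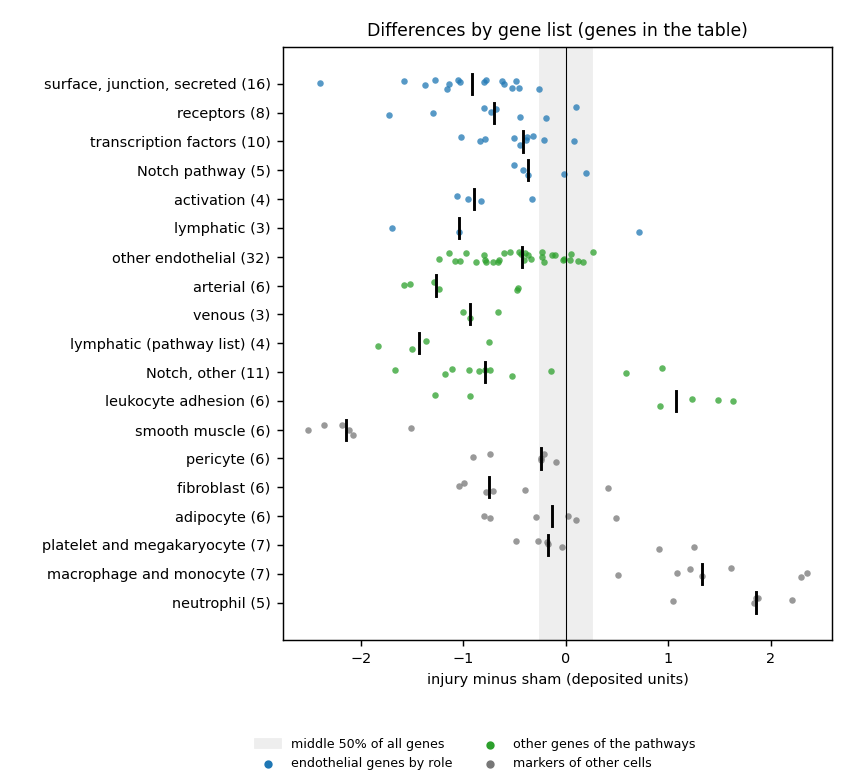
Difference between the injury and sham means (x axis, deposited units) of the genes in each list, 1 point per gene, with a black bar at the list median and the number of genes in brackets. The grey band holds the middle 50% of all 12661 genes. Medians of the 6 endothelial roles plotted lie between -1.04 and -0.37, those of smooth muscle and neutrophil markers at -2.15 and 1.86.

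The sham libraries differed between themselves, and the direction varied by role. All 10 transcription factors and all 5 Notch genes had the higher value in sham replicate 1, against 7 of the 16 surface, junction and secreted genes and 51.6% of all genes. The widest gaps in that direction were those of *Prox1* (0.91), *Klf4* (0.90), *Sox17* (0.82) and *Podxl* (0.80). In the other direction they were those of *Emcn* (-0.68), *Vwf* (-0.60), *Plvap* (-0.53) and *Icam1* (-0.50). In 9 of the 47 genes the sham gap was wider than the difference between the groups, as it was in 33.5% of all genes. All 6 arterial genes of the pathway lists were higher in sham replicate 1, and all 3 venous genes were higher in sham replicate 2. All 6 smooth muscle markers and 4 of 4 skeletal muscle markers were also higher in sham replicate 1. The part of these other tissues in the gaps was not tested.

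**Figure D4:**
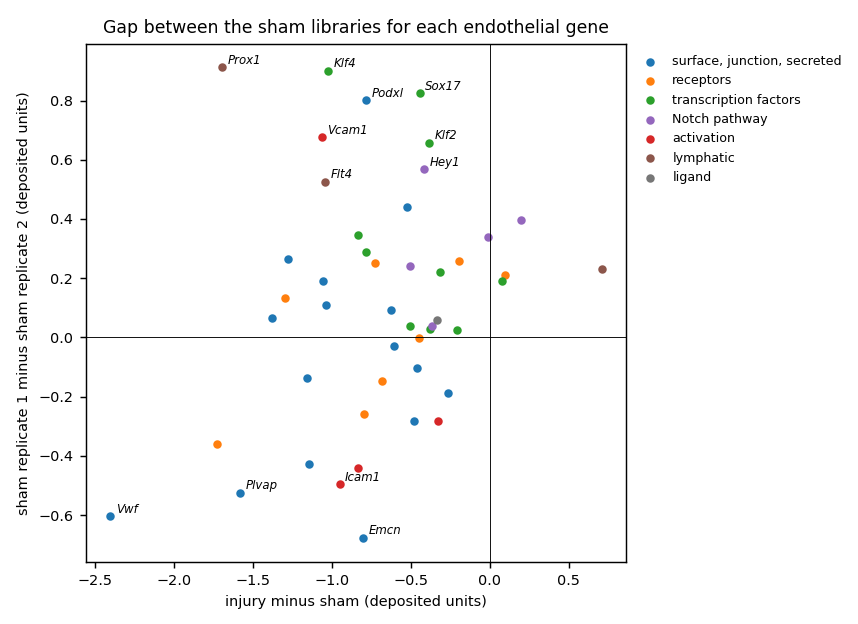
Sham replicate 1 minus sham replicate 2 (y axis) against the difference between the injury and sham means (x axis), both in deposited units, for the 47 endothelial genes coloured by role. Genes with a gap beyond about 0.5 are named. Transcription factors (green) and Notch genes (purple) all lie above 0, whereas *Vwf*, *Plvap*, *Emcn* and *Icam1* lie lowest.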

How the data were processed

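RNA-seq values of 4 libraries (2 sham, 2 injury; 480 ng of total RNA each, stranded mRNA kit) were taken as deposited. Per the labels and methods, the authors used FastQC 0.11.8, cutadapt 1.18, Trimmomatic 0.39, STAR 2.6.0a on mm9, featureCounts and DESeq2 1.28.0. The values the authors deposited are a signed score per gene, not counts, from -2.27 to 6.45 with column medians within 0.01 of 0. How they were made from reads, and the depth behind them, are not given in the sources used here, so precision rests on the spread between libraries and no count model was run. Groups came from the sample titles. Here limma 3.58.1 in R 4.3.3 was fitted across all 12661 genes with the group as the only term (2 residual and 3.48 prior degrees of freedom), two-sided, without a filter, and tested on simulated data. In 20 simulated runs it recovered 20.3% of changes of 1 unit and 66.65% of changes of 2 units. A gene that was not called may therefore still have changed. Members and lists were chosen with earlier results of these data known. All listed endothelial genes in the table were to be named. Of the pathway and cell type lists, genes with an adjusted p under 0.05 were to be named (1 is not reported here), and also *Vegfa*, *Vegfc*, *Pgf*, *Apln*, *Lyve1* and *Efnb2*. Red cell genes, *Lck*, *Itgal*, *Itga4*, *Pf4*, *Ppbp*, *Rbpj* and *Notch2* were named outside that rule, after their values were seen. Also outside it are *Aqp1*, *Cav1*, *Nr2f2*, *Gpihbp1*, *Cd300lg*, *Car4*, *Cd93*, *Bcl6b* and *Nostrin*. Mesothelial markers (0 of 4 in the table) were not analysed here. Gene positions come from the GENCODE annotation of NCBIM37 (mm9). The alternatives tried were 2 normalizations of the columns, 2 other thresholds, the replicate number as a block, a robust prior, removal of repeated rows and each library left out. Tables and plots used Python 3.11.15, pandas 2.3.3, numpy 2.4.6 and matplotlib 3.10.9.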

Additional observations from a re-analysis of the deposited data

How the results depend on the processing

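No endothelial call or median reversed its direction. Of the 13 genes called lower, 13 were also called after quantile normalization, after scaling of the columns (16 called lower in each), with a robust variance prior and with identical rows counted once. With the replicate block 12 were called (all but *Erg*) and 684 genes over the whole table, against 941 without it; same-numbered libraries share only a number, and their deviations correlated at -0.094. Among the pathway and marker genes, the block also lost *Nrarp*, *Tspan7*, *Gja4*, *Cspg4*, *Plin1*, the 4 smooth muscle and the 3 fibroblast calls, and added *Vegfc*, *Aqp1*, *Nr2f2*, *Itga4* and *Pf4*. With each library left out, where a lone library is assumed to vary like the others, 0 to 13 endothelial genes were called lower and 0 to 1 higher, 0 to 22 pathway genes lower and 0 to 6 higher, and 0 to 1790 genes in all; fewer samples leave 1 residual degree of freedom. At a threshold of 0.1 the counts were 24 endothelial genes lower and 1 higher, 33 pathway genes lower and 4 higher, and 2317 genes in all. A minimum difference of 1 unit left 591 genes. Quantile normalization gave 4 pathway genes higher, and the cause was not tested. Depth is unknown and limits are set by 2 libraries per group.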

Other observations

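In the list of other endothelial genes 27 of 32 had lower means after injury (median difference -0.43), as had 6211 of all 12661 genes. Of those near 0, 4 are given here, chosen after their values were seen and with no test. *Gpihbp1*, which carries lipoprotein lipase to the capillary lumen, was at 0.35 and 0.56 in the sham libraries and at 0.20 and 0.66 in the injury libraries. *Cd300lg* was at 0.73 and 0.73 against 0.53 and 1.04, and *Car4* at 1.04 and 0.52 against 0.56 and 1.23, with injury replicate 2 the highest of the 4 libraries in both. *Cd93*, a surface lectin related to CLEC14A, was at 0.20 and -0.18 against 0.24 and -0.14, where *Clec14a* itself had differed by -1.16. Differences of these 4 genes were -0.019, 0.055, 0.12 and 0.038, and the groups overlapped in each. They are not the only ones near 0: *Bcl6b* and *Nostrin* of the same list differed by -0.031 and -0.11, and their groups overlapped too. Other genes of the list that capillaries use were lower in mean, *Aqp1* by a difference of -0.88 and *Cav1* of -0.40, neither called in the full comparison.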
